A study of Mus musculus with 12 samples.

Results

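Integrins are the adhesion receptors by which leukocytes hold on to other cells and to matrix. The 10 chains described here are Itgam, its partner Itgb2, the neighbouring leukocyte chains Itgax and Itgal, and Itgae, Itgb7, Itga4, Itgb1, Itga6 and Itgav. They are 10 of the 24478 gene symbols in the deposited tables. The set was chosen by gene name around Itgam, which was itself selected on its measured high level in the libraries with ectopic MYC, so the values of Itgam are given as a description and were not tested. For a gene with several transcripts the one with the most reads over the 12 libraries was used. The other 9 chains were tested.

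RNA was sequenced from thymic tissue of mice in 4 groups of 3 libraries. The controls are described as T cells that express endogenous MYC alone. The T58A and the S62A lymphomas were thymic lymphomas with ectopic MYCT58A only or ectopic MYCS62A only. The fourth group, called splenomegaly thymi here, is thymic tissue of S62A mice that had splenomegaly. Its label names both T and B cells, with endogenous MYC beside ectopic MYCS62A. MYC is a transcription factor that drives growth, and T58 and S62 are phosphorylation sites that bear on its turnover. The sources used here give neither the strain, the age nor the promoter that drove the ectopic MYC, and do not say whether each library came from a separate animal. A p-value therefore measures only how much the libraries of a group vary, which may be technical.

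An integrin is a pair of 1 alpha and 1 beta chain, and an alpha chain reaches the cell surface only with its partner. Itgb2 is the beta chain of the leukocyte family. With Itgam it forms the complement receptor known as Mac-1, found on monocytes, macrophages, granulocytes and natural killer cells. Paired with Itgal it forms LFA-1, by which T cells bind ICAM molecules, and Itgax and Itgad are its other alpha partners. Itgb7 pairs with Itgae, which binds E-cadherin on epithelium, or with Itga4, which directs lymphocytes to the gut. Itgb1 pairs with Itga4, Itga6, Itgav and many more, and serves binding to matrix and to VCAM1.

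Itgam, Itgax and Itgal lie on the same chromosome. In the authors' coordinates on mm9, Itgam spans chr7:135206154-135262005, Itgax chr7:135273082-135294171 and Itgal chr7:134439774-134478651, all on the plus strand. Itgb2 lies at chr10:76993093-77028419 on the plus strand. The promoter windows of Itgam and Itgax are shown because these 2 neighbours, which share Itgb2 as their partner, had different patterns over the groups, as described below. Each window runs from 250 bases before to 50 bases after the start, on the plus strand, and the sequences are those of RefSeq for build GRCm38.p6, which held 6 of the 10 chains. Capitals mark GAGGAA, the purine box bound by the myeloid factor PU.1, read on both strands. The Itgam window is chr7:128062390-128062689 and the Itgax window chr7:128129300-128129599.
Itgam: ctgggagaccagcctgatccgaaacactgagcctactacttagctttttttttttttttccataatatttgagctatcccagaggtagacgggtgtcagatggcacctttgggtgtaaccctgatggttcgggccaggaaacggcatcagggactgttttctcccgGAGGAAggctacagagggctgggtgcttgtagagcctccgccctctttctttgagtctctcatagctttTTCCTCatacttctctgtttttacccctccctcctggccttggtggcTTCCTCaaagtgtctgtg
Itgax: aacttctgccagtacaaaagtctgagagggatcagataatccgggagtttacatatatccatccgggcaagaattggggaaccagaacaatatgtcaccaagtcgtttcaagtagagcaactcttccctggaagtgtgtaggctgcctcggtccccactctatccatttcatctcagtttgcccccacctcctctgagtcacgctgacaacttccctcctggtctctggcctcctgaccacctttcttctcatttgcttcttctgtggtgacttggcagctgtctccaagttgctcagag
The Itgam window held 3 matches to GAGGAA, whose first bases lay at -84, -15 and 33 from the start, and the Itgax window held 0. Among the other chains with a window, Itgav held 2, Itgb1 and Itgb7 held 1 each, and Itga4 held 0. At least 1 match was present in 28.3% of 32851 promoters of the same length. The letters TGTGGT, bound by RUNX factors, occurred 0 times for Itgam and 1 time for Itgax, and in 16.8% of all windows. The letters CACGTG, an E-box bound by MYC, occurred in neither, and in 7.15% of all windows. These matches are descriptions of the letters and show no binding.

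Reads summed over genes ranged from 9577372 to 22437968 per library. Levels are given as CPM, read counts brought to a common library size with TMM factors, and as FPKM, which is also per transcript length, where chains are compared with each other. Reads assigned to Myc, which may or may not include those of the ectopic gene, measured 79.9 to 85.5 CPM in controls, 134 to 159 in T58A lymphomas, 157 to 203 in S62A lymphomas and 84.2 to 99.9 in splenomegaly thymi. The 18 pan T cell markers summed to 19450 to 20200 CPM in controls, 11080 to 12530 in T58A lymphomas, 8893 to 14080 in S62A lymphomas and 1650 to 1786 in splenomegaly thymi. Of this sum, Tcf7 alone averaged 4129 CPM in controls, 4352 and 5208 in the T58A and S62A lymphomas and 153 in splenomegaly thymi. By gene, 9 of the 18 fell against control in the T58A group and 11 in the S62A lymphoma group, and 0 rose. Of all genes 17.4% and 22.2% fell. Cd3d and Cd247 fell by the largest fold in both. Cd3d averaged 524 CPM in controls, 52.1 and 45.4 in these lymphomas and 54.4 in splenomegaly thymi. Cd247 averaged 663, 87.9, 92.2 and 94.2 CPM in the same order. The 16 B cell markers summed to 3213 to 4078 CPM in those thymi and to at most 888 in any other library. S62A lymphoma 3 stood apart for the integrins, with the highest Itgam and the lowest Itgb2 and Itgal of all 12 libraries, and with the lowest T cell sum of the 6 lymphomas. Results of the 10 chains that rest on it are therefore given with and without it. The titles carry a letter code, which was G, G and H in controls, H in T58A lymphomas and I in both S62A groups, so that code and group cannot be told apart for the S62A groups. In bulk tissue, fewer cells of a type and less RNA per cell cannot be told apart.

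By FPKM, Itgam ranked 9th or 10th of the 10 chains in every control and 1st in all 6 lymphomas. In control libraries it measured 12.5, 11.9 and 11.3 CPM. In T58A lymphomas it measured 891, 515 and 331 CPM, and in S62A lymphomas 438, 891 and 1514 CPM. In splenomegaly thymi it measured 112, 65.6 and 60.5 CPM. Mean FPKM was 3.48 ± 0.207 in controls and 21.5 ± 7.33 in splenomegaly thymi, and among lymphomas 165 ± 79.5 for T58A and 259 ± 148 for S62A (SD, n = 3). The lymphoma groups overlapped with each other, while the splenomegaly thymi lay between them and the controls without overlap. The fitted log2 fold change against control was 5.60 ± 0.53 (SE, 3 libraries a group) in T58A lymphomas, a 48.6-fold difference, and it ranked 95th of 15606 genes from the highest fold change down. In S62A lymphomas it was 6.31 ± 0.55, a 79.5-fold difference at rank 68, and 5.8 without S62A lymphoma 3. In splenomegaly thymi it was 2.74 ± 0.47, a 6.67-fold difference at rank 882. Between the lymphoma groups the log2 difference of S62A from T58A was 0.71 ± 0.43, and it was 0.20 without S62A lymphoma 3 and 1.16 without T58A lymphoma 1. A comparison within 1 title code, control 3 against the T58A lymphomas within code H, gave a log2 fold change of 5.69.

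**Figure D1:**
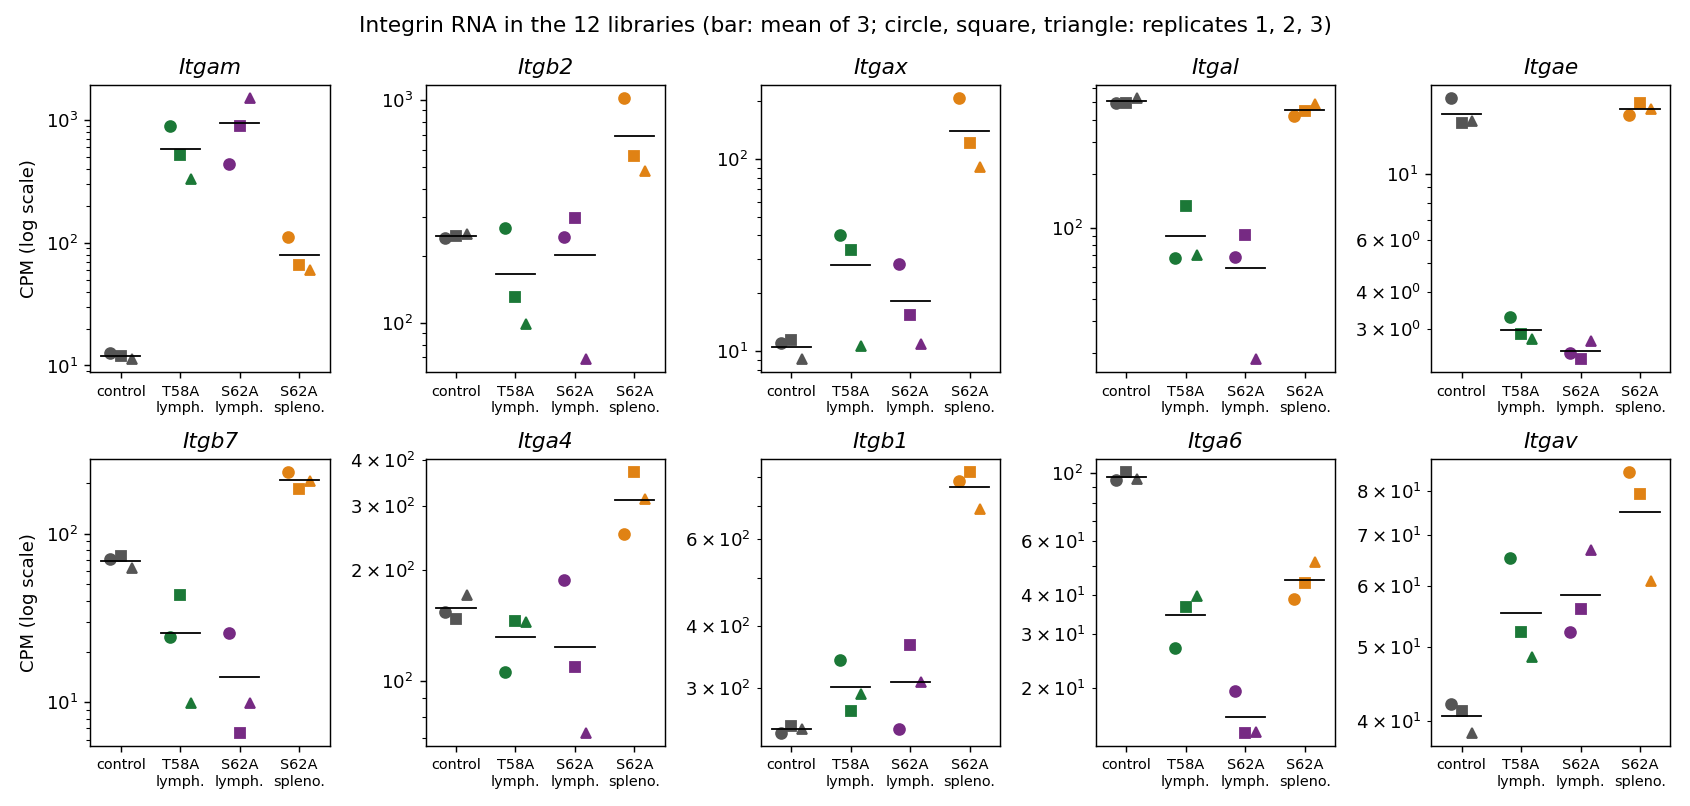
Level of each of the 10 integrin chains in CPM on a log axis, by group, with 1 point per library and a bar at the mean of 3. Itgam lies between 11.3 and 12.5 CPM in controls and between 331 and 1514 CPM in the 6 lymphomas, whereas Itgb2 overlaps between controls and lymphomas.

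Itgb2, the beta chain that Itgam needs, did not pass the test in either lymphoma group. It measured 239.8, 245.2 and 249.4 CPM in controls, 268, 130.3 and 99.1 in T58A lymphomas, and 242.9, 297 and 68.9 in S62A lymphomas. In splenomegaly thymi it measured 1022, 564 and 481 CPM. The lymphomas spread to both sides of the narrow control range, and all 3 splenomegaly thymi lay above every other library. The log2 fold change against control was -0.56 ± 0.49 in T58A lymphomas (edgeR adjusted p = 0.4) and -0.27 ± 0.49 in S62A lymphomas (edgeR adjusted p = 0.679), the latter turning to 0.14 without S62A lymphoma 3. In splenomegaly thymi Itgb2 rose by 1.49 ± 0.50 on the log2 scale (edgeR adjusted p = 0.029), a call that was lost when any 1 control, or splenomegaly thymus 1, was left out (edgeR adjusted p from 0.0731 to 0.106).

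Itgal, the T cell partner of Itgb2, fell in both lymphoma groups. It measured 494, 496 and 528 CPM in controls, 67.6, 132.5 and 70.3 in T58A lymphomas, 68.8, 90.6 and 18.5 in S62A lymphomas, against 419, 449 and 492 in splenomegaly thymi. Every lymphoma lay far below every control, and the splenomegaly thymi came up to just under the controls. Its log2 fold change was -2.49 ± 0.46 in T58A lymphomas (edgeR adjusted p = 0.00184) and in S62A lymphomas it was -3.09 ± 0.47 (edgeR adjusted p = 0.000454), or -2.67 without S62A lymphoma 3. In splenomegaly thymi the log2 difference was -0.16 ± 0.43 (edgeR adjusted p = 0.781).

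Itgax, the chain typical of dendritic cells and some macrophages, was highest in splenomegaly thymi. It measured 11.04, 11.5 and 9.09 CPM in controls, 40.3, 33.4 and 10.6 in T58A lymphomas, 28.4, 15.4 and 10.9 in S62A lymphomas, against 208, 121 and 90.5 in splenomegaly thymi. In both lymphoma groups 1 library lay within the control range. Itgax rose by 3.73 ± 0.52 on the log2 scale in splenomegaly thymi (edgeR adjusted p = 0.000198). Its log2 fold change was 1.42 ± 0.49 in T58A lymphomas (edgeR adjusted p = 0.0401), a call that was lost with any control left out, with T58A lymphoma 1 or 2 left out or with splenomegaly thymus 2 left out (edgeR adjusted p from 0.054 to 0.141), and under limma on FPKM (limma adjusted p = 0.0836 and 0.0907 with the pseudocounts 0.1 and 1). In S62A lymphomas it was 0.79 ± 0.48 (edgeR adjusted p = 0.203). The reads of Itgam, Itgax and Itgad, which are similar in sequence, may be shared in part, since the sources used here do not say how reads with several matches were treated.

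Set against Itgb2 on the FPKM scale, which allows levels of different genes to be compared, Itgam passed from a small fraction of its partner to above it. The ratio of Itgam to Itgb2 was 0.0332, 0.0308 and 0.0288 in controls. It was 2.11, 2.51 and 2.12 in T58A lymphomas, and 1.14, 1.91 and 13.9 in S62A lymphomas. In splenomegaly thymi it was 0.0695, 0.0738 and 0.0799. The ratio was thus above 1 in each of the 6 lymphomas and below 0.1 in each of the other 6 libraries, with only S62A lymphoma 3 above 3. Because Itgam was chosen for its high level, these ratios are a description.

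The make-up of the alpha chains available to Itgb2 moved with them. Of the summed FPKM of Itgam, Itgal, Itgax and Itgad, Itgal held 93.1% to 94.7% in controls, 5.78% to 17.2% in T58A lymphomas, 1.05% to 10.6% in S62A lymphomas and 47.3% to 70.3% in splenomegaly thymi. Itgam held 2.31% to 2.69% in controls, 76.1% to 86.9% in T58A lymphomas, 77.1% to 98.0% in S62A lymphomas and 9.87% to 14.4% in splenomegaly thymi. Itgax reached 18.04% to 32.7% in splenomegaly thymi and at most 6.11% elsewhere. The sum of the 4 alpha chains was 1.21 to 1.24 times Itgb2 in controls, 2.43 to 3.30 times in T58A lymphomas, 1.48 to 14.2 times in S62A lymphomas and 0.482 to 0.810 times in splenomegaly thymi. With Itgam in the sum, alpha RNA exceeded beta RNA most in the lymphomas and fell short of it in the splenomegaly thymi. Because Itgam was chosen for its high level, this is a description. The ratio of Itgal alone to Itgb2 FPKM was 1.13 to 1.18 in controls and 0.140 to 0.566 in T58A lymphomas. It was 0.150 to 0.170 in S62A lymphomas and 0.228 to 0.569 in splenomegaly thymi. That of Itgax was 0.0283 to 0.0363 in controls and 0.0402 to 0.199 in the lymphomas.

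**Figure D2:**
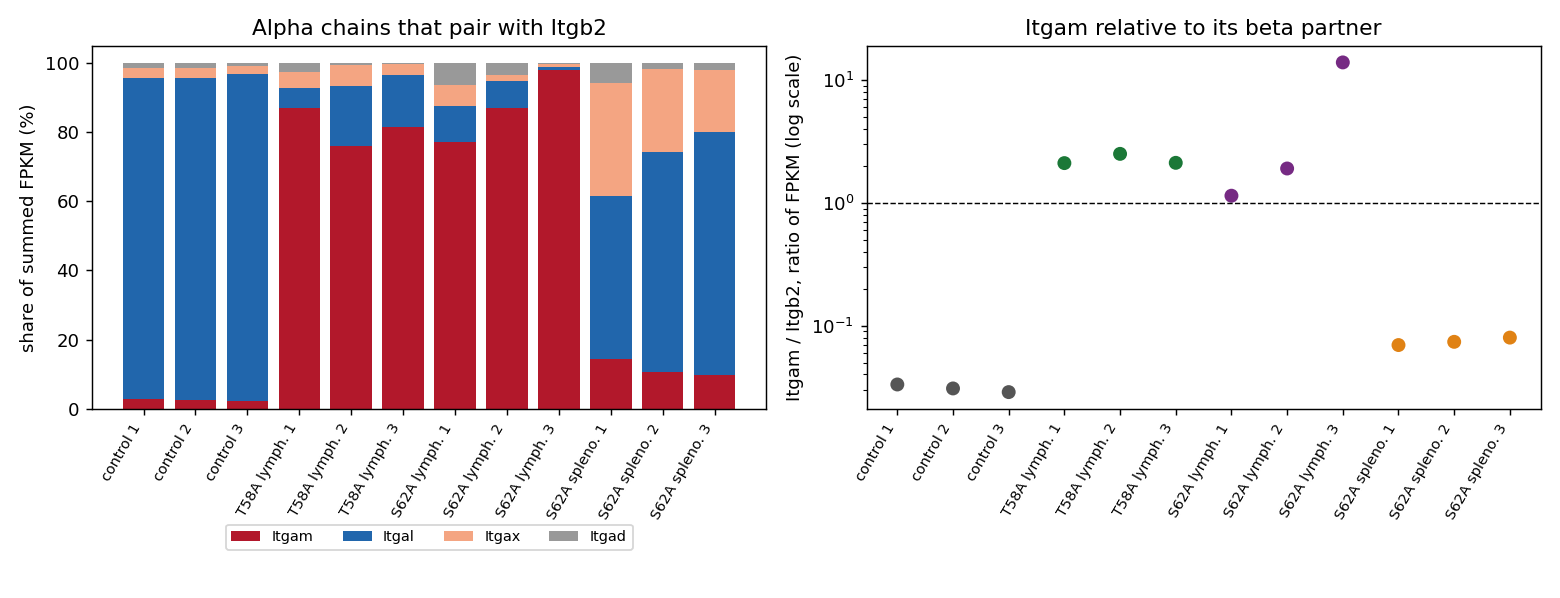
Left, share of each alpha partner of Itgb2 in their summed FPKM, in percent, with 1 bar per library. Right, ratio of Itgam to Itgb2 FPKM on a log axis, with a dashed line at 1. Itgam makes up 76.1% to 98.0% of the alpha chains in the lymphomas, and its ratio to Itgb2 lies above the line in these 6 libraries alone.

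Itgae and Itgb7, the chains of the receptor for E-cadherin, fell together in the lymphomas and parted in the splenomegaly thymi. Itgae measured 18.1, 14.9 and 15.1 CPM in controls, 3.29, 2.88 and 2.76 in T58A lymphomas, 2.48, 2.37 and 2.73 in S62A lymphomas, against 15.9, 17.3 and 16.6 in splenomegaly thymi. The lymphomas formed a low group and the other 6 libraries a high one, with no overlap. The log2 fold change of Itgae was -2.42 ± 0.22 in T58A lymphomas (edgeR adjusted p = 2.71e-05), -2.66 ± 0.22 in S62A lymphomas (edgeR adjusted p = 1.22e-05) and 0.05 ± 0.21 in splenomegaly thymi (edgeR adjusted p = 0.846). Itgae, at chr11:72904097-72960951 on the plus strand, overlaps Gsg2 on the minus strand, which held 7641 reads against 1941 of Itgae. As the sources used here do not give the strand setting of the counting, reads of the 2 genes cannot be told apart with certainty.

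Itgb7 measured 70.6, 74.0 and 62.3 CPM in controls, 24.5, 43.0 and 9.95 in T58A lymphomas, and 25.8, 6.61 and 9.93 in S62A lymphomas. Splenomegaly thymi held 233, 184 and 205 CPM. All lymphomas lay below the controls and all splenomegaly thymi above them. Its log2 fold change was -2.29 ± 0.52 in S62A lymphomas (edgeR adjusted p = 0.00513) and 1.59 ± 0.50 in splenomegaly thymi (edgeR adjusted p = 0.0223). In T58A lymphomas it was -1.42 ± 0.51 (edgeR adjusted p = 0.0477), which no longer passed with any control, any splenomegaly thymus or T58A lymphoma 1 or 3 left out (edgeR adjusted p from 0.056 to 0.115). The rise in splenomegaly thymi was likewise lost with any control or splenomegaly thymus 1 left out (edgeR adjusted p from 0.051 to 0.0711).

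Itga4, which pairs with Itgb7 or Itgb1 in lymphocyte homing, kept to a similar range in controls and lymphomas. Its level was 154, 147 and 172 CPM in controls, 106, 145 and 144 in T58A lymphomas, 189, 109 and 72.4 in S62A lymphomas, against 251, 371 and 312 in splenomegaly thymi. The lymphomas overlapped the controls in the S62A group, the T58A lymphomas lay just below them, and the splenomegaly thymi lay above all others. Its log2 fold change was -0.26 ± 0.29 in T58A lymphomas (edgeR adjusted p = 0.507), -0.35 ± 0.29 in S62A lymphomas (edgeR adjusted p = 0.342) and 0.98 ± 0.29 in splenomegaly thymi (edgeR adjusted p = 0.0157). The last call was lost without control 1 or 2 or splenomegaly thymus 2 (edgeR adjusted p from 0.0509 to 0.0585), and without S62A lymphoma 1 the S62A lymphomas passed at -0.79 (edgeR adjusted p = 0.018). Itga4 overlaps Cerkl, a gene of 1959 reads on the other strand, against 35006 reads of its own. The ratio of Itga4 to Itgb7 FPKM was 0.482 to 0.666 in controls, 0.818 to 3.51 in T58A lymphomas, 1.76 to 4.01 in S62A lymphomas and 0.261 to 0.488 in splenomegaly thymi.

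Itgb1, the beta chain shared by most matrix receptors, differed in the splenomegaly thymi. It measured 244, 252 and 248 CPM in controls, 343, 269.5 and 292 in T58A lymphomas, 248.6, 367 and 309 in S62A lymphomas, against 784, 819.7 and 689.6 in splenomegaly thymi. The lymphomas began at the control level and reached no higher than 367 CPM, and the splenomegaly thymi stood clear of both. Itgb1 rose by 1.62 ± 0.15 on the log2 scale in these thymi (edgeR adjusted p = 1.5e-05), and its log2 fold change was 0.28 ± 0.15 in T58A lymphomas (edgeR adjusted p = 0.165) and 0.31 ± 0.15 in S62A lymphomas (edgeR adjusted p = 0.112). Without S62A lymphoma 1 the latter passed, at 0.45 (edgeR adjusted p = 0.0268).

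Itga6, a laminin-binding chain, fell in all 3 groups with ectopic MYC. It measured 95.2, 101 and 95.8 CPM in controls, 27.1, 36.7 and 39.8 in T58A lymphomas, 19.6, 14.3 and 14.3 in S62A lymphomas, against 39.0, 44.0 and 51.4 in splenomegaly thymi. All libraries with ectopic MYC lay below all controls, and the S62A lymphomas lay lowest. Its log2 fold change against control was -1.50 ± 0.18 in T58A lymphomas (edgeR adjusted p = 0.000162), -2.60 ± 0.19 in S62A lymphomas (edgeR adjusted p = 5.44e-06) and -1.12 ± 0.18 in splenomegaly thymi (edgeR adjusted p = 0.000483). The ratio of Itga6 to Itgb1 FPKM was 0.275 to 0.285 in controls and 0.0277 to 0.0970 in all libraries with ectopic MYC.

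Itgav, the chain of the receptors for vitronectin and osteopontin, was slightly above control in each library with ectopic MYC. It measured 42.1, 41.2 and 38.6 CPM in controls, 65.4, 52.2 and 48.5 in T58A lymphomas, 52.3, 56.1 and 66.9 in S62A lymphomas, against 84.7, 79.1 and 61.0 in splenomegaly thymi. None of those 9 libraries overlapped the controls. Itgav rose by 0.88 ± 0.16 on the log2 scale in splenomegaly thymi (edgeR adjusted p = 0.00114). In S62A lymphomas its log2 fold change was 0.52 ± 0.16 (edgeR adjusted p = 0.0224), and it did not pass with any control or S62A lymphoma 3 left out (edgeR adjusted p from 0.0541 to 0.076) or without TMM factors (0.0507). In T58A lymphomas it was 0.44 ± 0.16 (edgeR adjusted p = 0.0507), and it passed without T58A lymphoma 3, S62A lymphoma 1 or 3 or splenomegaly thymus 3 (edgeR adjusted p from 0.0275 to 0.0477).

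Against control, 1 of the 9 tested chains rose and 4 fell in T58A lymphomas, where 18.8% of the 15606 genes tested rose and 17.4% fell. The same counts were 1 and 4 in S62A lymphomas, where 21.9% of genes rose and 22.2% fell. In splenomegaly thymi 6 rose and 1 fell, where 22.9% of genes rose and 26.3% fell. The median log2 fold change of the 9 chains was -0.56, -0.35 and 0.98 in these 3 comparisons, beside 0.01, 0.00 and -0.08 over all genes tested. The chains that fell in both lymphoma groups were Itgal, Itgae, Itgb7 and Itga6. These comparisons share their control libraries. Within title code H, with control 3 alone against the T58A lymphomas, the log2 fold changes were -2.54 for Itgal, -2.33 for Itgae, -1.46 for Itga6, -1.27 for Itgb7 and 1.64 for Itgax. In that fit 0 of the 9 passed and 3 had an unadjusted p under 0.05 (edgeR), but its spread comes from the 3 T58A lymphomas alone, with the lone control assumed to vary like them, so the lost calls say nothing of the title code.

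**Figure D3:**
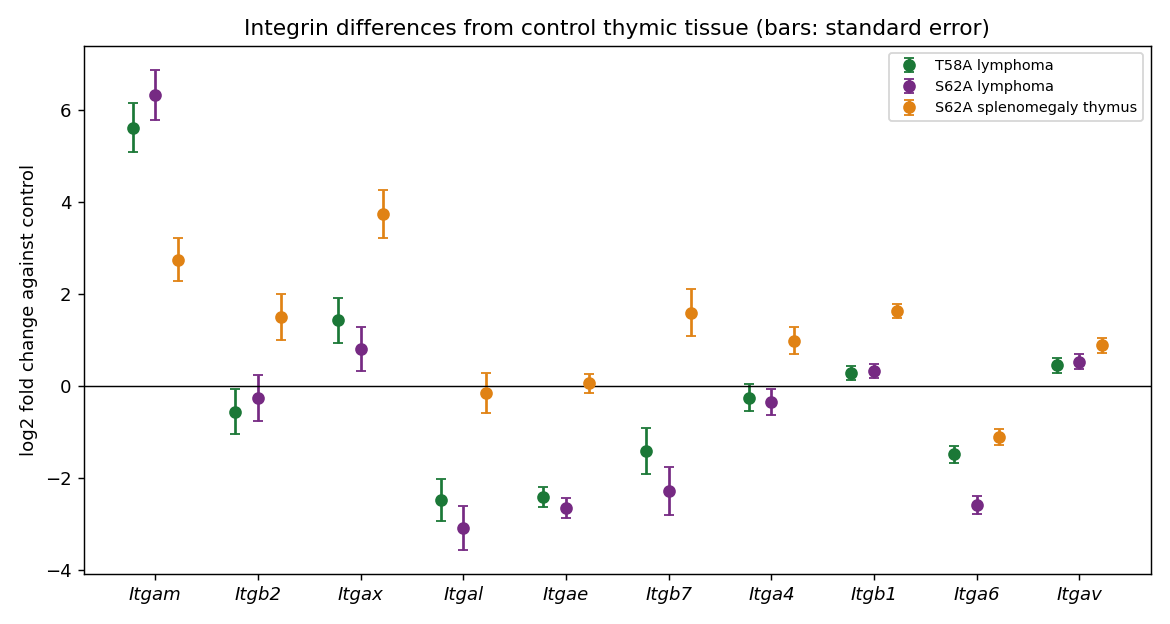
Log2 fold change of each chain against control from the edgeR fit, with standard errors as bars, for the T58A lymphomas, the S62A lymphomas and the S62A splenomegaly thymi. Itgam stands at 5.60 and 6.31 in the lymphomas, Itgb2 at -0.56 and -0.27, and the splenomegaly thymi lie above the lymphomas for every chain shown except Itgam.

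Between the lymphoma groups, Itga6 was the 1 chain of 9 that differed, with a log2 difference of S62A from T58A of -1.10 ± 0.18 (edgeR adjusted p = 0.0193). All 3 S62A lymphomas lay below all 3 T58A lymphomas. Of all genes, 0.859% were higher and 2.29% lower in S62A lymphomas. The higher share of the genes called was 27.2%, and 15.9% without TMM factors. The difference in Itga6 did not pass when only the 6 lymphomas were fitted (log2 difference -1.11, edgeR adjusted p = 0.232), a fit in which 0 genes passed and 2045 had an unadjusted p under 0.05. Title codes H and I coincide with these groups and cannot be told apart from them.

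The splenomegaly thymi held more of most chains than either lymphoma group. Against S62A lymphomas 8 of 9 chains rose and 0 fell, where 25.6% of genes rose and 28.6% fell. Itgb7 had the widest difference, with a log2 fold change of 3.87 ± 0.56 (edgeR adjusted p = 0.000198), followed by Itgax at 2.94 ± 0.51 (edgeR adjusted p = 0.000615), Itgal at 2.93 ± 0.47 (edgeR adjusted p = 0.000371) and Itgae at 2.71 ± 0.22 (edgeR adjusted p = 6.58e-06). Itgav was the exception, at 0.36 ± 0.16 (edgeR adjusted p = 0.0794), although it passed without S62A lymphoma 3 or splenomegaly thymus 3 (edgeR adjusted p = 0.0434 and 0.019). Itgam went the other way, with a log2 difference of -3.58 ± 0.48, and -3.07 without S62A lymphoma 3. Against T58A lymphomas 8 of 9 rose and 0 fell, where 20.5% of genes rose and 24.6% fell. Here Itgb7 stood at 3.0 ± 0.53 (edgeR adjusted p = 0.00111) and Itga6 was the exception, at 0.38 ± 0.18 (edgeR adjusted p = 0.107). The call of Itgav there, at 0.44 ± 0.16 (edgeR adjusted p = 0.0455), was lost in 12 of the alternative settings (adjusted p from 0.0574 to 0.151), among them with any control, T58A lymphoma 2 or 3, S62A lymphoma 2, or splenomegaly thymus 1 or 2 left out. Itgam differed by -2.87 ± 0.46. The median of the 9 chains was 1.76 against S62A lymphomas and 2.05 against T58A lymphomas, beside -0.07 over all genes in each.

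Markers of B cells, endothelium and dendritic cells were highest in the same splenomegaly thymi. Of 16 B cell markers 15 rose against control and 0 fell, of 10 endothelial markers 10 rose, and of 12 dendritic cell markers 9 rose and 1 fell, while of 18 pan T cell markers 0 rose and 17 fell. Among all genes tested 22.9% rose and 26.3% fell in this comparison. The endothelial markers summed to 656 to 1020 CPM there, to 206 to 233 in controls and to 194 to 371 in the lymphomas. The dendritic cell markers summed to 1311 to 2046 CPM there, to 562 to 641 in controls and to 333.5 to 578 in the lymphomas. The part of these cells in the rise of Itgax, Itgb1, Itgb2, Itgb7, Itga4 and Itgav was not tested.

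Most markers of monocytes and macrophages rose in each group with ectopic MYC. Of 20 such markers 14 rose and 0 fell in T58A lymphomas, 13 rose and 1 fell in S62A lymphomas, and 19 rose and 0 fell in splenomegaly thymi, with medians of 1.65, 1.62 and 3.16. Of all genes 18.8%, 21.9% and 22.9% rose in these comparisons, and 17.4%, 22.2% and 26.3% fell. Their summed level was 769 to 895 CPM in controls, 2265 to 3464 in T58A lymphomas, 1936 to 3288 in S62A lymphomas and 5911 to 10900 in splenomegaly thymi. Itgam thus had its highest levels in the lymphomas, and the macrophage sum its highest in the splenomegaly thymi. By group mean, Marco was instead highest in S62A lymphomas and Cd163 in controls. S62A lymphoma 3, with the highest Itgam, had the lowest macrophage sum of the 6 lymphomas. The part of these cells in the integrin values was not tested.

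Among these markers, Marco, a scavenger receptor of macrophages, rose by 5.93 ± 0.87 in T58A lymphomas (edgeR adjusted p = 0.000486), 7.33 ± 0.90 in S62A lymphomas (edgeR adjusted p = 0.000124) and 6.48 ± 0.88 in splenomegaly thymi (edgeR adjusted p = 0.000162), from 22 reads in the 3 controls together. Msr1, a related receptor, rose by 3.18 ± 0.43 in S62A lymphomas (edgeR adjusted p = 0.000228). It measured 1.34 to 3.25 CPM in controls and 15.6 to 26.4 in these lymphomas. Its level was 13.5 to 29.3 CPM in T58A lymphomas and 25.5 to 50.1 in splenomegaly thymi. The chemokine receptor Cx3cr1 rose by 3.28 ± 0.54 in T58A lymphomas (edgeR adjusted p = 0.000971) and 5.27 ± 0.59 in splenomegaly thymi (edgeR adjusted p = 4.21e-05). Timd4, a receptor of resident macrophages, fell in S62A lymphomas, with a log2 fold change of -2.41 ± 0.69 (edgeR adjusted p = 0.0158). Of 10 myeloid transcription factors 5 rose and 0 fell in T58A lymphomas, 3 rose and 1 fell in S62A lymphomas, and 9 rose and 1 fell in splenomegaly thymi. Beside these, 18.8%, 21.9% and 22.9% of all genes rose, and 17.4%, 22.2% and 26.3% fell. Spi1, which encodes PU.1, had a log2 fold change of 1.55 ± 0.57 in S62A lymphomas (edgeR adjusted p = 0.0461) and 3.49 ± 0.61 in splenomegaly thymi (edgeR adjusted p = 0.000803). It measured 14.6 to 19.4 CPM in controls, 21.85 to 80.9 in T58A lymphomas and 18.7 to 85.4 in S62A lymphomas. S62A lymphoma 3, the lowest of these lymphomas, lay within the control range.

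Granulocytes and natural killer cells also carry Itgam. Of 18 granulocyte markers tested, 0 rose and 1 fell in T58A lymphomas, 0 rose and 14 fell in S62A lymphomas, and 2 rose and 5 fell in splenomegaly thymi, beside 17.4%, 22.2% and 26.3% of all genes that fell. The summed level of the 20 listed was 177 to 284 CPM in controls, 149 to 283 in T58A lymphomas, 21.7 to 68.4 in S62A lymphomas and 184 to 255 in splenomegaly thymi. Of these, Ly6g, Elane, Retnlg, Epx, Siglecf and Cebpe were at 0 reads in all S62A lymphomas, so no median is given. The 2 that rose in splenomegaly thymi were Prg2, at 42.0, 176 and 133 CPM, and Csf3r, at 90.1, 36.6 and 19.9. The granulocyte sums of these libraries were 184, 224 and 255 CPM, so they do not show the level of the other markers. Mmp9 and Camp fell there, with log2 fold changes of -3.13 ± 0.88 (edgeR adjusted p = 0.0123) and -2.70 ± 1.02 (edgeR adjusted p = 0.0465). Of 10 natural killer cell markers 1 rose and 1 fell in T58A lymphomas, 2 rose and 1 fell in S62A lymphomas, and 3 rose and 2 fell in splenomegaly thymi, with median log2 fold changes of 0.48, 1.505 and 2.05 and with sums of 103 to 142 CPM in controls, 34.6 to 97.6 in T58A lymphomas, 44.8 to 184 in S62A lymphomas and 113 to 254 in splenomegaly thymi. Over all genes 18.8%, 21.9% and 22.9% rose, and 17.4%, 22.2% and 26.3% fell. The sum of 184 CPM was that of S62A lymphoma 1, against 44.8 and 58.25 in the other S62A lymphomas. Ncr1, Klrk1, Klrd1 and Eomes measured 14.0 to 26.2 CPM in S62A lymphoma 1 and 0.215 to 4.20 in the rest of its group. Gzma and Cd160 measured much the same in S62A lymphomas 1 and 3. S100a8, a calcium-binding protein abundant in neutrophils, measured 35.4 to 60.6 CPM in controls, 21.2 to 66.4 in T58A lymphomas, 0.636 to 2.40 in S62A lymphomas and 3.78 to 17.9 in splenomegaly thymi.

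**Figure D4:**
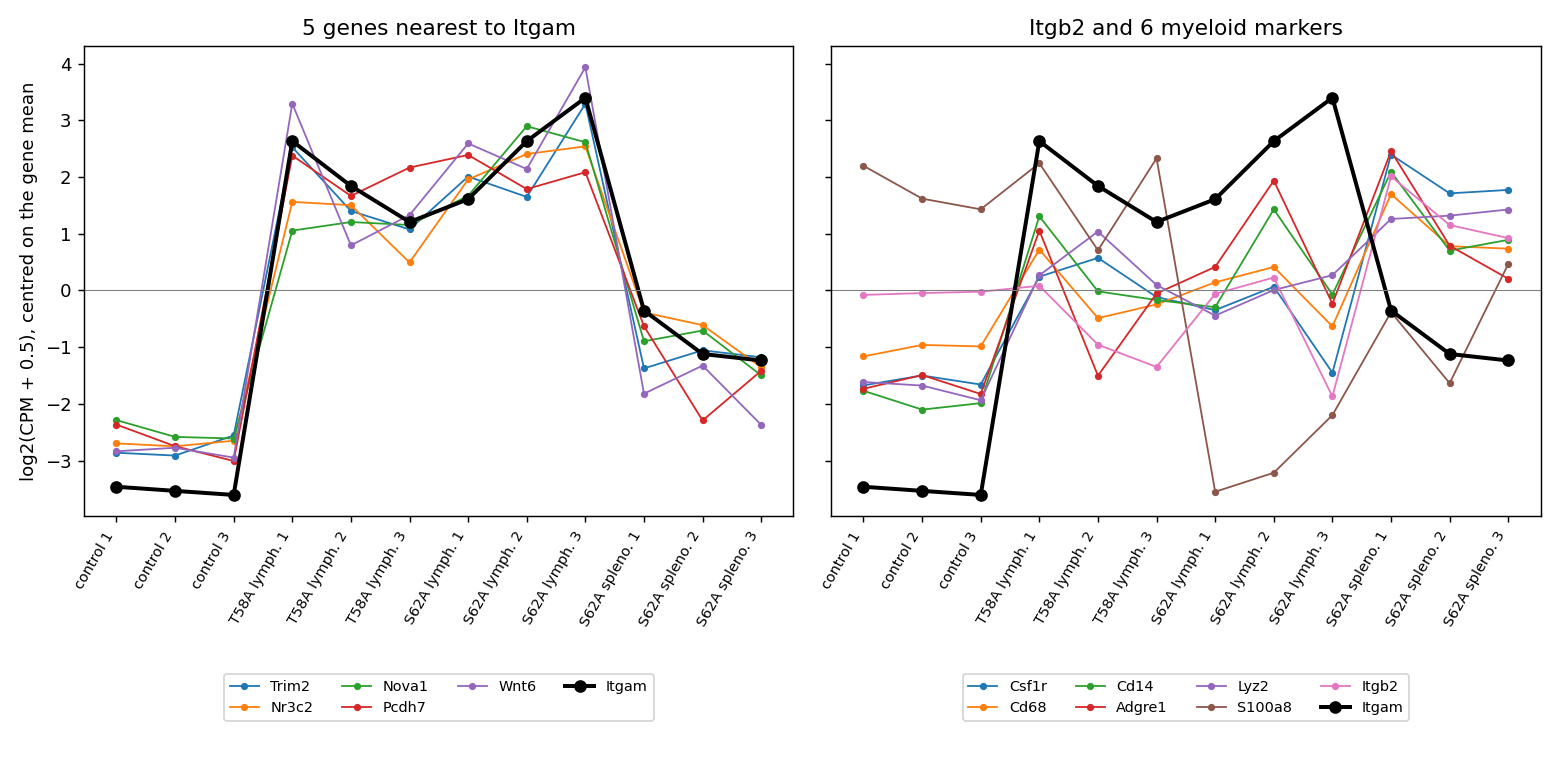
Profiles over the 12 libraries as log2(CPM + 0.5) less the mean of each gene, with Itgam in black. Left, the 5 genes nearest to Itgam, which are high in all 6 lymphomas. Right, Itgb2 and 6 myeloid markers. Itgb2, Csf1r, Lyz2 and, narrowly, Cd68 are highest in the 3 splenomegaly thymi, where Itgam lies below its own mean. Cd14 and Adgre1 overlap between lymphomas and splenomegaly thymi, and S100a8 is higher in controls and T58A lymphomas than in both S62A groups.

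Likeness of profiles was the root mean square difference between centred log2(CPM + 0.5) profiles over the 12 libraries, over 14471 genes, where a flat profile would differ from Itgam by 2.47. The nearest genes were Trim2 at 0.596, Nr3c2 at 0.650, Nova1 at 0.785, Pcdh7 at 0.803 and Wnt6 at 0.813. Trim2 is a ubiquitin ligase, Nr3c2 the mineralocorticoid receptor, Nova1 a neuronal splicing factor, Pcdh7 a protocadherin and Wnt6 a secreted signal. Trim2 measured 4.02 to 5.28 CPM in controls, 71.2 to 195 in T58A lymphomas, 106 to 332.5 in S62A lymphomas and 12.6 to 15.9 in splenomegaly thymi. Like Itgam, it peaked in S62A lymphoma 3.

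Itgb2 was 12003rd of the 14471 genes in likeness to Itgam, at a difference of 3.02, farther than a flat profile. Among the macrophage markers Marco was 108th, Msr1 323rd and Cd14 562nd, the median rank was 4098.5, and 12 of 20 were nearer than a flat profile, as were 41.3% of all ranked genes. Of 18 granulocyte markers 1 was nearer than flat. Among the other chains Itgav was nearest, at rank 3451, and Itgal farthest, at rank 14260. Within the 6 lymphomas alone the 5 nearest genes were Zfp459, Ncoa7, Abca4, Gas2l3 and Smc4, of which 0 were among the 5 nearest over all libraries, and 1 of 20 macrophage markers was nearer than a flat profile, beside 33.7% of all genes. In these lymphomas Abca4 measured only 0.1725 to 1.80 CPM and Zfp459 0.7475 to 6.53 CPM, low levels beside the 0.5 CPM added. With a pseudocount of 2 CPM, 3 of the 5 nearest over all libraries were kept.

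The genes nearest to Itgb2 over the 12 libraries were Ust at 0.319, Sh3bp2 at 0.325, Il10ra at 0.328, Dock5 at 0.342 and Ptpn6 at 0.344, where a flat profile would differ by 1.02. Over these libraries 8 of 20 macrophage markers were nearer to Itgb2 than a flat profile, at a median rank of 5918, beside 28.3% of all genes. Il10ra is a receptor for interleukin-10 and Ptpn6 a phosphatase of blood cells. Il10ra measured 18.3 CPM in S62A lymphoma 3, the lowest value of the 12, as Itgb2 did there. Within the 6 lymphomas the nearest were Cd180, Nfkbiz, Wdfy3, Tnf and Aoah, and 14 of 20 macrophage markers were nearer to Itgb2 than a flat profile, beside 30.7% of all genes, with Cybb, a subunit of the phagocyte oxidase, at rank 13 and Spi1 at rank 40. Over the 6 lymphomas, 14 macrophage markers were thus nearer than flat to Itgb2 and 1 to Itgam. Over all 12 libraries these counts were 8 and 12. The flat values there, 1.02 for Itgb2 and 2.47 for Itgam, differ, so the counts do not rank the 2 chains. With a pseudocount of 2 CPM the median ranks over all libraries were 4495 for Itgb2 and 4374 for Itgam. The libraries share their depth scaling, and these ranks are descriptions with no test.

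Of 17 further integrin chains 14 were tested. In T58A lymphomas 3 rose and 4 fell, in S62A lymphomas 3 rose and 5 fell, and in splenomegaly thymi 4 rose and 3 fell, with medians of 0.29, -1.16 and 1.13. The shares of all genes that rose and fell were 18.8% and 17.4%, 21.9% and 22.2%, and 22.9% and 26.3%. Itga9, which pairs with Itgb1, rose in each group, by 3.49 ± 0.50 (edgeR adjusted p = 0.000414), 3.21 ± 0.49 (edgeR adjusted p = 0.000489) and 3.42 ± 0.50 (edgeR adjusted p = 0.000243). Its level was 9.09 to 9.75 CPM in controls and 44.0 to 167 in all libraries with ectopic MYC. Itgb3, the partner of Itgav and of the platelet chain, had log2 fold changes of -2.19 ± 0.29 in T58A lymphomas (edgeR adjusted p = 0.000278) and -3.84 ± 0.32 in S62A lymphomas (edgeR adjusted p = 1.15e-05). Itgb5, another partner of Itgav, rose by 1.57 ± 0.32 in T58A lymphomas (edgeR adjusted p = 0.00344) and by 2.53 ± 0.33 in splenomegaly thymi (edgeR adjusted p = 0.000123). Itga2, a collagen receptor chain, rose in S62A lymphomas by 6.13 ± 0.91 (edgeR adjusted p = 0.000409), with 9 reads in all controls and 477 in all S62A lymphomas. Itgad, the fourth partner of Itgb2, measured 2.86 to 5.01 CPM in controls, 0.805 to 20.4 in T58A lymphomas, 1.40 to 27.9 in S62A lymphomas and 8.30 to 34.5 in splenomegaly thymi, and passed in none of the 3 comparisons (edgeR adjusted p from 0.147 to 0.537).

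Ligands of the integrins were tested for 23 of 26 listed. In T58A lymphomas 5 rose and 3 fell, in S62A lymphomas 2 rose and 7 fell, and in splenomegaly thymi 15 rose and 3 fell, with medians of 0.06, -0.52 and 1.28. Beside these counts stand 18.8%, 21.9% and 22.9% of all genes that rose, and 17.4%, 22.2% and 26.3% that fell. Icam2, a ligand of the Itgal and Itgam receptors, measured 118 to 124 CPM in controls, 22.4 to 43.6 in T58A lymphomas, 21.9 to 31.45 in S62A lymphomas and 45.4 to 66.6 in splenomegaly thymi. Its log2 fold change was -1.92 ± 0.24 in T58A lymphomas (edgeR adjusted p = 0.000179). Cdh1, the E-cadherin bound by Itgae, had log2 fold changes of -3.40 ± 0.56 in S62A lymphomas (edgeR adjusted p = 0.000745) and -3.26 ± 0.56 in splenomegaly thymi (edgeR adjusted p = 0.000702). Markers of thymic epithelium, which carries Cdh1, summed to 2464 to 2727 CPM in controls and 63.1 to 261 in all libraries with ectopic MYC, and the part of this in the values of Cdh1 was not tested. Fn1, the fibronectin bound by Itga4 with Itgb1, rose by 2.67 ± 0.38 in T58A lymphomas (edgeR adjusted p = 0.000382) and by 1.66 ± 0.36 in S62A lymphomas (edgeR adjusted p = 0.00408). C3, whose fragment is a ligand of the Itgam and Itgax receptors, rose by 3.97 ± 0.38 in splenomegaly thymi (edgeR adjusted p = 1.63e-05).

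Of 36 genes that activate integrins or link them to the cell interior, 6 rose and 8 fell in T58A lymphomas, 5 rose and 11 fell in S62A lymphomas, and 11 rose and 8 fell in splenomegaly thymi, with medians of -0.26, -0.31 and 0.12. Over all genes 18.8%, 21.9% and 22.9% rose, and 17.4%, 22.2% and 26.3% fell. The kinases Syk and Ptk2 rose in all 3 groups with ectopic MYC. Syk, which signals below Itgb2 in myeloid cells and below the B cell receptor, rose by 2.45 ± 0.32 in T58A lymphomas (edgeR adjusted p = 0.000236) and 2.57 ± 0.32 in S62A lymphomas (edgeR adjusted p = 0.000132), and by most, 3.37 ± 0.33, in splenomegaly thymi (edgeR adjusted p = 1.85e-05). Ptk2, the focal adhesion kinase, rose by 2.52 ± 0.43 (edgeR adjusted p = 0.00125) and 2.12 ± 0.43 (edgeR adjusted p = 0.00252) in these lymphomas, and by 1.09 ± 0.42 in splenomegaly thymi (edgeR adjusted p = 0.0497). The last call lay just under the threshold, and no fit with a library left out is given for it. Ptk2 measured 13.2 to 13.9 CPM in controls, 73.9, 81.6 and 20.1 in S62A lymphomas and 24.5 to 33.2 in splenomegaly thymi. Rasgrp2, which switches on the small GTPase that activates integrins in blood cells, had log2 fold changes of -3.36 ± 0.41 in T58A lymphomas (edgeR adjusted p = 0.000176) and -3.65 ± 0.42 in S62A lymphomas (edgeR adjusted p = 8.11e-05). In splenomegaly thymi Lyn, a Src family kinase of myeloid and B cells, rose by 4.24 ± 0.55 (edgeR adjusted p = 0.000121). Skap1, an adaptor of T cells that links their receptor to Itgal, had a log2 fold change there of -3.15 ± 0.71 (edgeR adjusted p = 0.00378). The summed T cell markers, given above, were at their lowest in the same thymi, and their part in this was not tested.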

How the data were processed

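Poly(A) RNA of thymic tissue was sequenced in 12 libraries, 3 in each of 4 groups taken from the titles. Per the labels' protocols the kit kept strand. The submitters' processing notes name bcl2fastq 2.20.0.422, Bowtie 1.0.0, DESeq2 and build mm9; the counting tool is not given in the sources used here. The authors deposited whole-number read counts for 36141 RefSeq transcripts, not normalized, and FPKM values, which were proportional to those counts within each transcript and library. Starts were taken as counted from 0 and are printed counted from 1.

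Counts were analysed with edgeR 4.0.16 in R 4.3.3. The filter filterByExpr (minimum count 10) kept 15606 genes. TMM factors scaled the libraries, and a quasi-likelihood model of group alone was fitted to all 12 libraries. P-values were adjusted by Benjamini-Hochberg over all genes, with a threshold of 0.05. The fit was tested on simulated counts. Alternatives used other size factors, no filter, DESeq2 1.42.0, limma 3.58.1 on log2(FPKM + 1) and log2(FPKM + 0.1), the transcript with the highest FPKM, fewer libraries and each library left out.

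The members and gene lists were chosen with earlier results of these data known. Named genes are every member, Myc, the 5 genes nearest to Itgam and to Itgb2, and per list and comparison with control at most the 2 risen and 2 fallen genes of largest fold past the threshold with at least 5 CPM in either group; genes outside this rule, such as Cd14, S100a8, Cybb and Itgad, were named with their values known. Not every gene the rule allows is reported here. Replicate numbers follow the order of the samples and pair nothing.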

Additional observations from a re-analysis of the deposited data

Results flagged for a closer look

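Itga6 differed between the lymphoma groups by a direct test: its log2 level was lower in S62A than in T58A lymphomas by a difference of -1.10 (edgeR adjusted p = 0.0193), in 3 of 3 libraries. It did not pass when the 6 lymphomas were fitted alone (edgeR adjusted p = 0.232). Itgb7 moved in opposite directions from control: it fell in both lymphoma groups and rose in splenomegaly thymi. The direct log2 difference of the thymi with splenomegaly from the lymphomas was 3.87 for S62A (edgeR adjusted p = 0.000198) and 3.0 for T58A (edgeR adjusted p = 0.00111), and all 3 of them lay above all 6 lymphomas. These comparisons share libraries, and the causes were not tested.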

How the results depend on the processing

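No paired analysis was possible because the titles give the groups no shared replicate numbers. For the fold changes of the 10 chains, 462 values under other settings were kept, 18 no longer passed, 3 newly passed, 6 turned in sign and 1 moved. With 1 library left out these numbers were 664, 37, 8, 8 and 3. A tested chain was kept if it held its direction and side of the threshold. Itgam, which was not tested, was kept if it held its direction and stayed within 1 SE of the main value, and moved if beyond that. None of the values that turned had passed the test. Itgae in splenomegaly thymi against control turned to -0.0531 without TMM factors, -0.0421 under limma on log2(FPKM + 1) and -0.0478 on log2(FPKM + 0.1), and ranged from -0.0034 to 0.142 with a library left out. Itgb1 between lymphomas turned to -0.0329, -0.0486 and -0.0493 under those 3 settings, and ranged from -0.114 to 0.165. With a library left out, the difference between lymphomas ranged from -0.0316 to 0.214 for Itgav, -0.0896 to 0.82 for Itgb2 and -0.54 to 0.18 for Itga4, and Itgb2 in S62A lymphomas against control from -0.65 to 0.14. Within title code H, with a lone control assumed to vary like the T58A lymphomas, that comparison gave 413 genes and 0 chains, with 3838 genes and 3 chains at an unadjusted p under 0.05. Between lymphomas DESeq2 gave 1754 genes, and the 6 lymphomas fitted alone gave 0 genes and 0 chains, with 2045 genes and 1 chain at an unadjusted p under 0.05; leaving out a library gave 108 to 783 genes, the lowest without control 2 and the highest without T58A lymphoma 1. The number of chains called ranged from 3 to 6 in T58A lymphomas and from 4 to 7 in S62A lymphomas and in splenomegaly thymi. Without TMM factors the median of all genes in splenomegaly thymi against control shifted by -0.11; Itgb2, Itgax, Itgb1, Itgb7, Itga4 and Itgav rose there under that scaling too. The causes were not tested. The precision is limited by 3 libraries a group, and by depth most for Itgae, which held 1941 reads in all.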
